A study of Mus musculus with 141 samples.

Results

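CpG methylation was described at 9 mouse genes that restrain the cell cycle or guard the genome: the cyclin-dependent kinase (CDK) inhibitor genes Cdkn2a, Cdkn2b, Cdkn2c, Cdkn1a, Cdkn1b and Cdkn1c, the tumour suppressors Rb1 and Trp53, and the DNA repair gene Mgmt. They are 9 of 21631 protein-coding genes on the chromosomes used, and were given as a list of names, drawn up with earlier results of these data known. Every CpG inside these genes or within 1 kb of either end was taken, which gave 815 of 1322177 CpGs. IdhR132H mouse glioma cells grew for over 2 weeks in 1 µM AG-881 (vorasidenib, an inhibitor of mutant IDH enzymes), or in its vehicle DMSO. Both arms carry the R132H mutation, whose enzyme makes a metabolite that inhibits the TET enzymes of DNA demethylation, and the question was whether levels at these genes differed with the inhibitor. The labels give neither the origin of the line nor further alleles.

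Live cells had been sorted singly into 1 plate per arm and profiled by single-cell reduced representation bisulfite sequencing (RRBS) after MspI digestion, which reads mainly CpG-dense fragments. There were 67 AG-881 cells with a median of 89440 CpGs called per cell (range 23895 to 190259), and 74 DMSO cells with a median of 67749 (range 10438 to 165853). Each arm held 4 library pools (pools 1 to 4 with AG-881, pools 5 to 8 with DMSO), so the effects of pool and arm cannot be told apart. The 24 cell barcodes were all used in more than 1 pool, and the 141 columns each had their own set of called CpGs. Each arm counted as 1 sample, so differences have no replicate check and no test was run. A level is the percentage of CpG calls that were methylated, pooled over cells. Intervals are exact 95% Clopper-Pearson intervals that cover counting error only and take calls as independent, although calls of 1 cell in 1 window go together.

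The INK4 proteins, made by Cdkn2a, Cdkn2b and Cdkn2c, bind CDK4 and CDK6, and the CIP/KIP proteins, made by Cdkn1a, Cdkn1b and Cdkn1c, bind a wider range of cyclin-CDK complexes. By blocking these kinases they keep the retinoblastoma protein Rb1 in the form that holds back E2F factors, while p53 (Trp53) induces Cdkn1a after DNA damage. Cdkn2a also makes an unrelated protein, Arf, from its outer start, and Arf blocks Mdm2 and so stabilises p53. MGMT removes alkyl groups from guanine, and methylation of its human promoter is a known marker of response to temozolomide in glioma. CDKN2A/B deletion marks aggressive IDH-mutant astrocytoma in patients, which is why coverage is given here beside each level.

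The sequences below show which promoter CpGs RRBS could read at the starts on which the results turn: an unmethylated start (Cdkn2a), a methylated one (Cdkn2b), one of intermediate level (Cdkn1a) and the repair gene Mgmt. Each is the RefSeq sequence of GRCm38.p6 (the same build as mm10) for the 250 bases before the annotated start. All 4 lines run 5′ to 3′ along the transcript, and capitals mark CpGs with a call in at least 1 cell. The Cdkn2a outer start (chr4:89294620-89294869, minus strand), the Cdkn2b start (chr4:89311033-89311282, minus strand), the Cdkn1a inner start (chr17:29093519-29093768, plus strand) and the Mgmt start (chr7:136894336-136894585, plus strand) are in that order.
Cdkn2a: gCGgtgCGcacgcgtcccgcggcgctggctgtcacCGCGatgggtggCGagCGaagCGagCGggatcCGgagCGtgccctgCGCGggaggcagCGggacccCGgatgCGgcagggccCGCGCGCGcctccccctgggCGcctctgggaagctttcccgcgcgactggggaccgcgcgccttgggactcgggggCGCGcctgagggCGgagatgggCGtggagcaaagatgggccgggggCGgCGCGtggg
Cdkn2b: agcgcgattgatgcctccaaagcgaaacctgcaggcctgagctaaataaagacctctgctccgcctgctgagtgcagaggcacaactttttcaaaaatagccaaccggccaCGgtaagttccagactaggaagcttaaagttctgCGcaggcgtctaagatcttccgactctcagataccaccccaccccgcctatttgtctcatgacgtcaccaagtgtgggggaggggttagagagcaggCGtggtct
Cdkn1a: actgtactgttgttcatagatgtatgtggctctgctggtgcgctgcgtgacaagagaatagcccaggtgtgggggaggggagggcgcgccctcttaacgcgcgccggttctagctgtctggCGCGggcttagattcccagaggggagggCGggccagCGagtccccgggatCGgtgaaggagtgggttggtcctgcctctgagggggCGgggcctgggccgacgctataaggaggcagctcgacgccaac
Mgmt: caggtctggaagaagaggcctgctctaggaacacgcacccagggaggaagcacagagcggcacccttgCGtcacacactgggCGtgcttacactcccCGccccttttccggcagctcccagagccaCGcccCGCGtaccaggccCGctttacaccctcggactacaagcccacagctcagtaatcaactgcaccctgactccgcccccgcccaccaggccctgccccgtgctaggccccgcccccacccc

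These stretches held calls at 27 of 40 CpGs for Cdkn2a, 3 of 12 for Cdkn2b, 6 of 19 for Cdkn1a and 7 of 15 for Mgmt. The MspI site CCGG (the same on both strands) occurred 3 times for Cdkn2a, 1 time for Cdkn2b, 2 times for Cdkn1a and 1 time for Mgmt, and is found in 56.3% of 21045 promoter stretches of this length. The GC box GGGCGG, searched on both strands and able to share bases with CCGG, occurred 4 times for Mgmt, 2 times each for Cdkn2a and Cdkn1a, and 0 times for Cdkn2b, against 43.1% of all stretches with at least 1. The TATA box TATAAA, on either strand, was found in none of these 4 stretches and in 11.7% of all. In the promoter windows from 250 bases before to 50 after the start, 0 of 147 calls were methylated with AG-881 and 0 of 142 with DMSO for Cdkn2a. For Cdkn2b the methylated calls were 14 of 22 with AG-881 and 8 of 16 with DMSO. For the Cdkn1a inner start they were 7 of 49 with AG-881 and 23 of 80 with DMSO, and for Mgmt 0 of 19 with AG-881 and 2 of 22 with DMSO.

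The starts of most of these genes were unmethylated in both arms, and the start windows of Cdkn2b and Cdkn1c were over 50% methylated. For the count of members, a start was the window of 1 kb either side of the outermost annotated start, or of the CpG-denser gene end for Cdkn1c and Rb1. A start was measured where each arm had 50 or more calls from 10 or more cells at CpGs with calls in 5 or more cells of both arms, called shared CpGs below. The starts of 6 of the 9 members were measured, and those of Cdkn2b, Cdkn1a and Mgmt were not. Of the 6, 0 were lower with AG-881 by at least 5 points, against 8.84% of 9360 measured starts of all genes, and 0 were higher by at least 5 points, against 2.67%. The median difference over the 6 was 0.0845 points, against -0.0149 over all measured starts. Under 5% in both arms were 5 of the 6 (Cdkn2a, Cdkn2c, Cdkn1b, Rb1 and Trp53), against 74.2% of all measured starts, a share near that background. Over 50% in both arms was 1 of the 6, Cdkn1c, against 3.41% of all. Counts over 6 genes do not set the members apart from other genes.

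**Figure D1:**
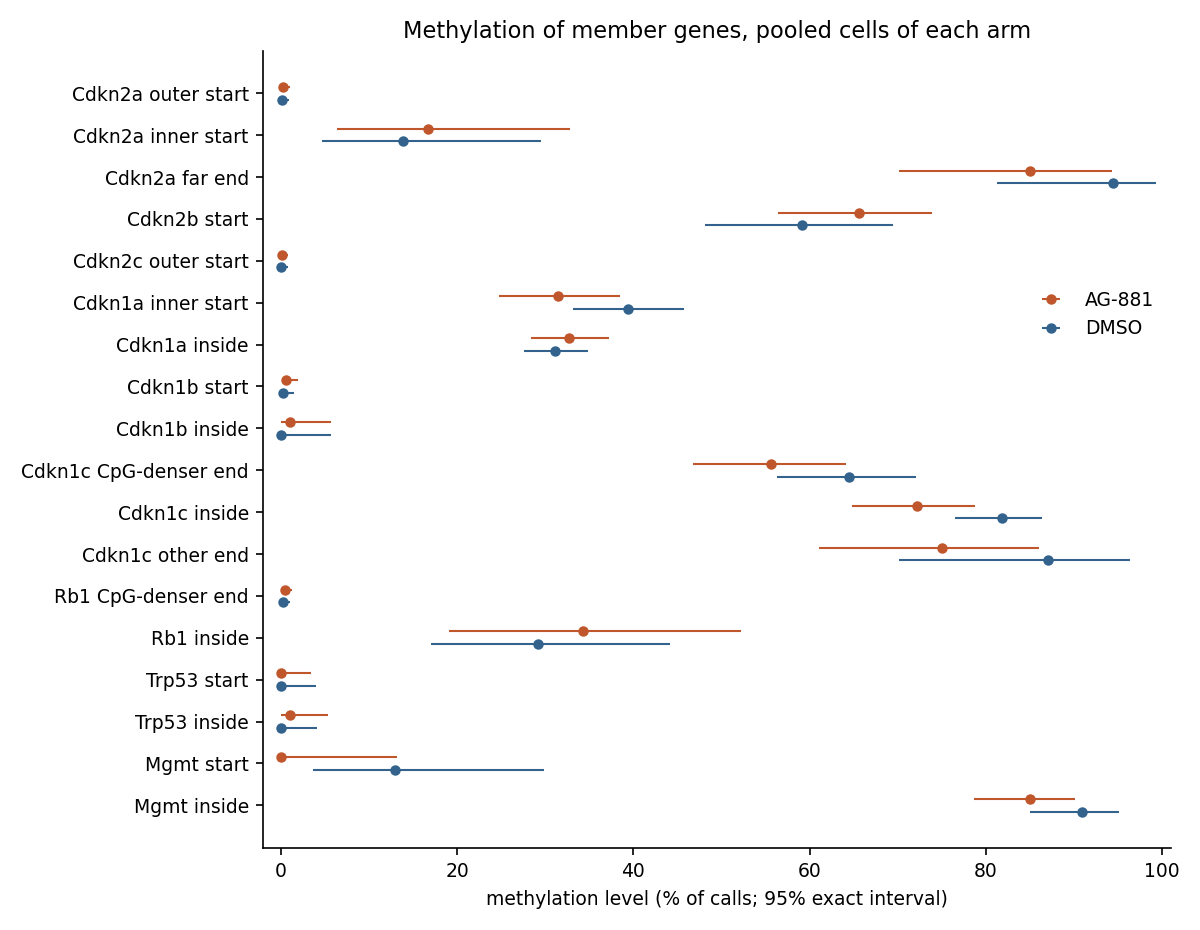
Methylation level (% of calls, horizontal axis) of member gene regions with at least 20 calls in each arm, for AG-881 cells (upper point of each pair) and DMSO cells (lower point), with 95% exact intervals from pooled calls. The outer starts of Cdkn2a, Cdkn2c and Cdkn1b, the Rb1 CpG-denser end and the Trp53 start lie below 1% in both arms, whereas Cdkn2b, Cdkn1c and the inside of Mgmt lie above 50%.

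Among the INK4 genes, Cdkn2a and Cdkn2b lie beside each other on chromosome 4, with start levels far apart. Cdkn2a (chr4:89274473-89294619, minus strand) was unmethylated at its outer start, which makes Arf: 1 of 549 calls was methylated with AG-881 (0.182%, interval 0.00461 to 1.01) and 1 of 625 with DMSO (0.16%, interval 0.00405 to 0.888). The 4 pools of each arm ranged from 0% to 0.980% with AG-881 and from 0% to 0.699% with DMSO. The inner start, which makes the INK4 protein p16Ink4a, lies 12427 bp downstream, and its window had calls at only 9 CpGs, which lie past the start. Methylated calls there numbered 6 of 36 with AG-881 (16.7%, interval 6.37 to 32.8, 6 cells) and 5 of 36 with DMSO (13.9%, interval 4.67 to 29.5, 7 cells). In cells with at least 3 calls, 4 of 6 AG-881 cells and 4 of 7 DMSO cells had no methylated call there, while the highest cell reached 83.3% with AG-881 and 66.7% with DMSO. The inner start is thus known from few cells, and no CpG of its promoter stretch was called. That stretch, from 250 bases before to 50 after the inner start, holds 12 CpGs and 2 CCGG sites in the reference. Of 104 promoters with that content, only 8.65% had no call, and the median was 9 AG-881 cells and 8 DMSO cells with a call. The absence of calls was thus unusual for that content, and its cause was not tested. The far end of the gene was methylated at 85.0% with AG-881 (40 calls) and 94.4% with DMSO (36 calls).

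Cdkn2b (chr4:89306289-89311032, minus strand) encodes p15Ink4b, and its start lies 16413 bp from the outer Cdkn2a start. Its start window was methylated at 80 of 122 calls with AG-881 (65.6%, interval 56.4 to 73.9, 18 cells) and 52 of 88 calls with DMSO (59.1%, interval 48.1 to 69.5, 13 cells). At shared CpGs the levels were 64.3% with AG-881 (42 calls) and 64.9% with DMSO (37 calls), a difference of -0.579 points (interval -22.7 to 21.9), which became -10.0 points without pool 4 and 16.7 points without pool 5. By pool, the AG-881 levels were 76.0%, 43.5%, 79.4% and 82.4% in pools 1 to 4. The DMSO levels were 94.1% in pool 5, 5% in pool 6 (2 cells), 20% in pool 7 (1 cell) and 62.1% in pool 8. The arms overlapped throughout, and pools of 1 arm differed far more than the arms did. When every CpG with a call was used, 5.83% of 10930 starts were above 50% in both arms, and Cdkn2b was among them.

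Cells differed in the same way. Of the cells with at least 3 calls at the Cdkn2b start, 3 of 18 AG-881 cells were fully methylated, 13 were mixed and 2 had no methylated call, and 6 of 13 DMSO cells were fully methylated, 6 were mixed and 1 had none. The median cell lay at 80.0% with AG-881 and 83.3% with DMSO, with cells from 0% to 100% in both arms. The contrast with Cdkn2a held within cells: among the cells with calls at both starts, 0 of 201 Cdkn2a calls and 72 of 114 Cdkn2b calls (63.2%) were methylated in 17 AG-881 cells. In 8 DMSO cells the same counts were 0 of 104 for Cdkn2a and 41 of 51 for Cdkn2b (80.4%). A fully unmethylated Arf start with at least 1 methylated Cdkn2b call was seen in 15 of those 17 AG-881 cells and in 8 of those 8 DMSO cells.

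**Figure D2:**
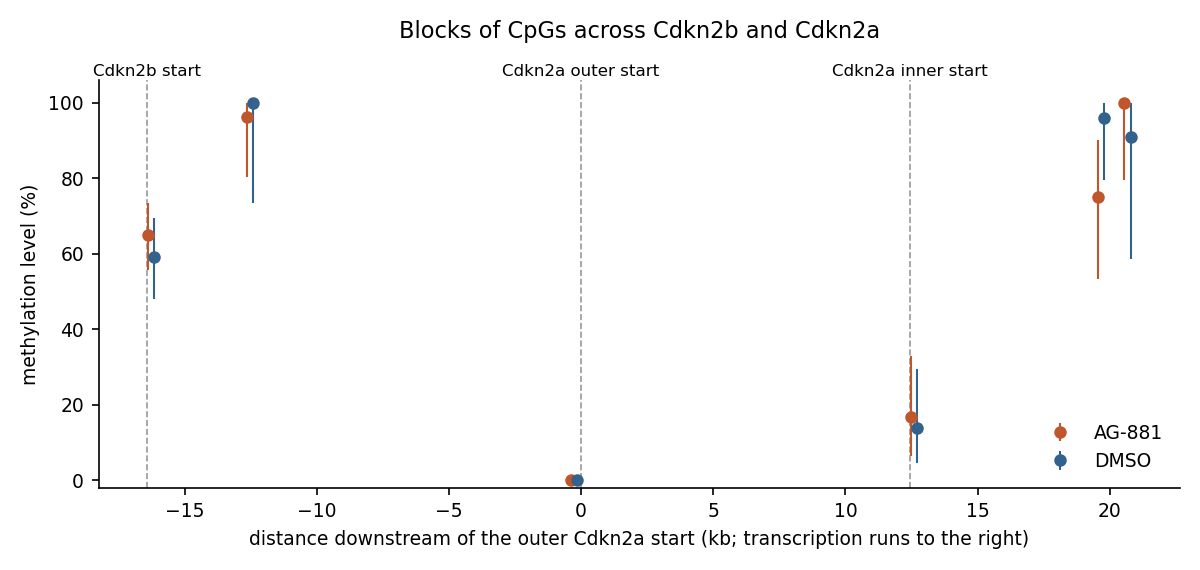
Methylation level (%) of blocks of neighbouring CpGs with at least 10 calls in each arm, against the distance in kb from the outer Cdkn2a start, with 95% exact intervals; points of the arms are set slightly apart, AG-881 on the left. The Cdkn2b start lies near 60% in both arms, the outer Cdkn2a start near 0, the inner start at 16.7% in AG-881 cells and 13.9% in DMSO cells, and the far ends of both genes at 75% or more.

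Cdkn2c (chr4:109660876-109666756, minus strand), which encodes p18Ink4c, was unmethylated and among the best covered members. At its outer start 1 of 702 calls was methylated with AG-881 (0.142%), and 0 of 464 with DMSO, which allows a level of up to 0.647%. Of the AG-881 cells, 52 of 53 with at least 3 calls had no methylated call, as had 37 of 37 DMSO cells.

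Among the CIP/KIP genes, Cdkn1a (chr17:29090979-29100722, plus strand), which encodes p21, had intermediate levels around its inner start. Neither gene end had a call in any cell, and its outer promoter holds 2 CpGs and no CCGG in the reference. Of the other promoters with that content, 99.7% had no call either, and 23.8% of all 20527 start windows had none. The inner start lies 2790 bp downstream. Its window was methylated at 31.4% with AG-881 (188 calls, 39 cells) and 39.4% with DMSO (249 calls, 44 cells), a difference of -7.97 points (interval -17.1 to 1.43). By pool the levels were 12.8%, 44.2%, 35.7% and 31.2% with AG-881, and 31.7%, 38.5%, 41.7% and 48.6% with DMSO, so the pools of the arms overlapped. At shared CpGs the difference was -5.53 points (interval -15.6 to 4.91), and it was -14.1 points without pool 2 and 0.0906 points without pool 8.

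Along Cdkn1a the level changed from block to block. Block levels here use every CpG with a call, and a gap of over 300 bp ended a block. From -129 to -43 bp of the inner start it was 14.3% with AG-881 (49 calls) and 28.8% with DMSO (80 calls). From 390 to 1320 bp past it, the block had 30.4% with AG-881 (276 calls) and 34.7% with DMSO (343 calls). From 1685 to 1866 bp past the start, 0 of 65 calls were methylated with AG-881 (limit 4.62%) and 0 of 147 with DMSO (limit 2.04%). Further on, from 4962 to 5413 bp, the level was 90.9% with AG-881 (55 calls) and 84.3% with DMSO (51 calls). Both arms thus had the same order of blocks, with a stretch without any methylated call between an intermediate one and a methylated one. Within cells, 17 of 32 AG-881 cells and 27 of 38 DMSO cells with at least 3 calls at the inner start were mixed, 12 AG-881 cells and 9 DMSO cells had no methylated call, and 3 AG-881 cells and 2 DMSO cells were fully methylated.

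**Figure D3:**
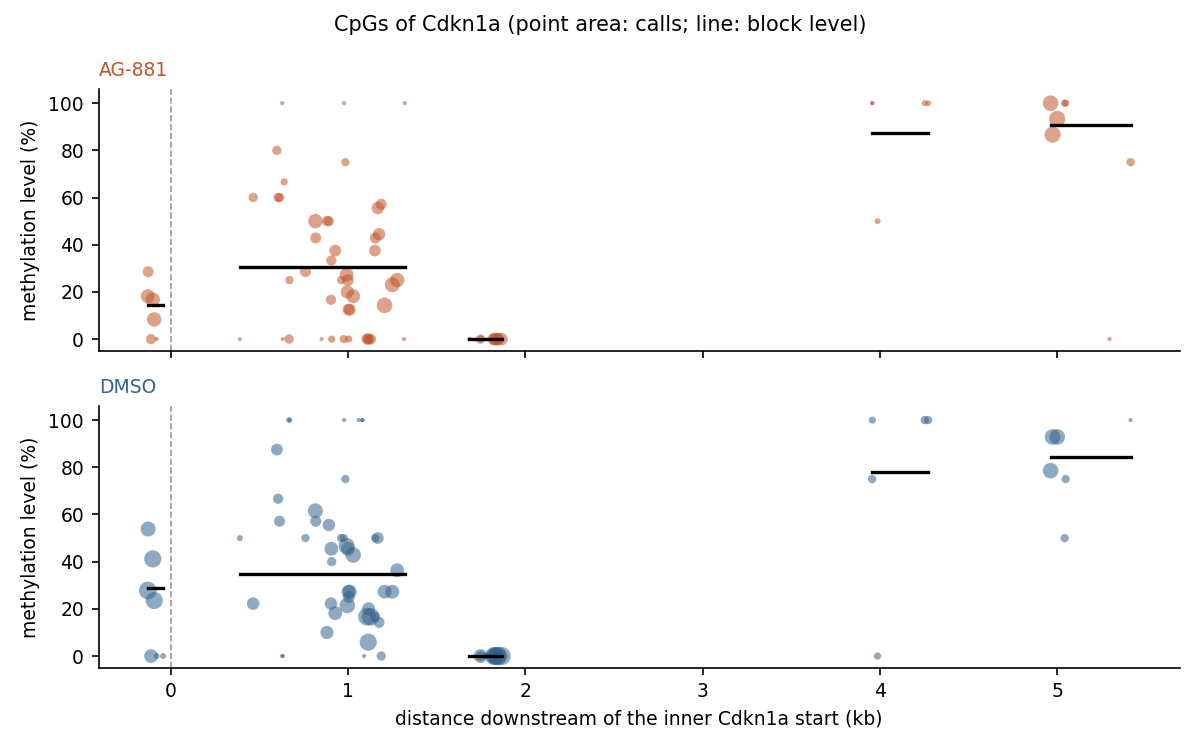
Methylation level (%) of single CpGs of Cdkn1a in AG-881 cells (upper panel) and DMSO cells (lower panel), against the distance in kb from the inner start; point area grows with the number of calls and black lines give block levels. In both panels the block from 1685 to 1866 bp has no methylated call, and the block from 4962 to 5413 bp lies at 90.9% with AG-881 and 84.3% with DMSO.

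Cdkn1b (chr6:134920401-134925525, plus strand), which encodes p27, was unmethylated. At its start 2 of 380 calls were methylated with AG-881 (0.526%, 43 cells) and 1 of 369 with DMSO (0.271%, 43 cells). Inside the gene the counts were 1 of 95 with AG-881 and 0 of 63 with DMSO (limit 4.76%).

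Cdkn1c (chr7:143458339-143461059), which encodes p57 and is imprinted in mouse and human, was methylated across its whole length. Its CpG-denser end is the one at the higher coordinate, and it was methylated at 55.6% with AG-881 and 64.5% with DMSO, differing by -8.92 points (interval -20.5 to 2.90). Inside the gene the level was 72.2% with AG-881 (169 calls) and 81.8% with DMSO (253 calls), a difference of -9.63 points (interval -18.3 to -1.15). At the other end it was 75% with AG-881 (52 calls) and 87.1% with DMSO (31 calls). The CpGs fell into 2 blocks, and the one from -116 to 168 bp of the denser end (negative towards the gene) was the lower in both arms, at 37.3% with AG-881 (59 calls) and 44.4% with DMSO (90 calls). The other block, from -2123 to -638 bp, had 72.1% with AG-881 (297 calls, interval 66.6 to 77.1). With DMSO it had 84.4% (346 calls, interval 80.1 to 88.1).

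All these Cdkn1c differences were negative when every CpG with a call was used, but they depended on which CpGs and pools entered. By pool the inside of the gene had 69.2%, 93.8%, 66.7% and 74.5% with AG-881, and 81.7%, 72.7%, 86.3% and 83.3% with DMSO. AG-881 pools 1 and 3 lay below every DMSO pool, pool 4 among them, and pool 2 above them on 16 calls. At shared CpGs the inside differed by -10.9 points (interval -23.1 to 0.442), and by -14.3 to -6.67 points with any 1 pool left out. The denser end instead differed by 3.39 points at shared CpGs (59.3% with AG-881 and 55.9% with DMSO, interval -9.73 to 16.4), by -13.2 points without pool 2 and by 9.22 points without pool 8. The other end differed by 14.3 points at shared CpGs (interval -7.39 to 36.3), with 100% of 18 calls methylated with AG-881 and 85.7% of 21 with DMSO. With every CpG with a call, the whole gene with its margins differed by -9.85 points (interval -16.3 to -3.35). DMSO pool 6, at 51.8%, nevertheless lay below every AG-881 pool, of which the lowest had 61.8%. At shared CpGs the whole gene with its margins differed by -3.78 points (interval -12.4 to 4.76). That difference was -12.6 points without pool 2 and 6.74 points without pool 4. The mean over cells with at least 3 calls inside the gene was 73.2% ± 24.9 with AG-881 (SD over 27 cells) and 79.7% ± 29.8 with DMSO (SD over 31 cells). Cells are not replicates, so these SDs describe the spread of cells and do not measure the error of the difference between arms.

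**Figure D4:**
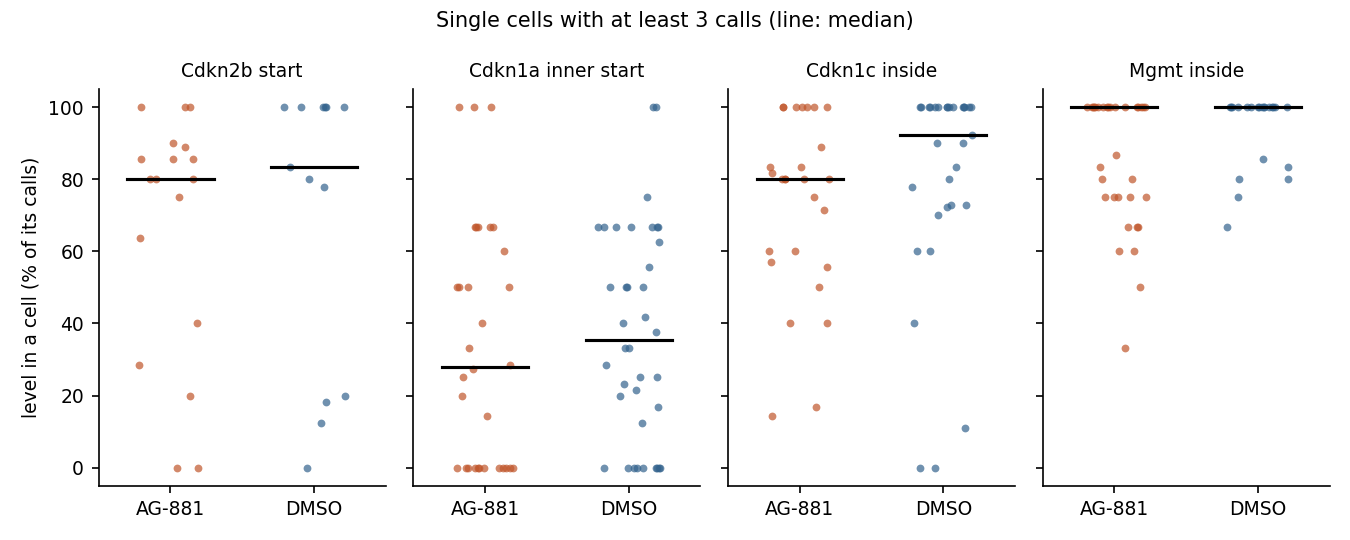
Methylation level of single cells (% of the cell's calls; cells with at least 3 calls) in 4 regions, with AG-881 cells left and DMSO cells right in each panel and black lines at the median. Cells of both arms span 0% to 100% at the Cdkn2b start and the inner Cdkn1a start, while most cells lie at 100% inside Mgmt.

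Of the tumour suppressors, Rb1 (chr14:73192858-73325951) was unmethylated at its CpG-denser end, the one at the higher coordinate. There 4 of 845 calls were methylated with AG-881 (0.473%) and 1 of 559 with DMSO (0.179%), in 37 cells of each arm. The other end had no call, and inside the gene 34.3% of 35 calls were methylated with AG-881 and 29.2% of 48 with DMSO. Those calls fell at 15 CpGs in separate places of a gene that also holds Lpar6, and the place with most calls, -7565 to -7495 bp of the denser end, had 8 of 14 calls methylated with AG-881 and 13 of 17 with DMSO.

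Trp53 (chr11:69580348-69591873, plus strand) had 0 of 105 methylated calls at its start with AG-881 (limit 2.86%, 27 cells) and 0 of 90 with DMSO (limit 3.33%, 25 cells), in a window it shares with Wrap53. Inside the gene the counts were 1 of 103 with AG-881 and 0 of 88 with DMSO (limit 3.41%). Its promoter stretch of 300 bases holds 10 CpGs and no CCGG and had no call, as had 93.8% of promoters with that content, so the level comes from CpGs at least 537 bp past the start.

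Mgmt (chr7:136894463-137128193, plus strand) was unmethylated to low at its start and methylated inside. At the start 0 of 26 calls were methylated with AG-881 (limit 11.5%, 7 cells) and 4 of 31 with DMSO (12.9%, interval 3.63 to 29.8, 10 cells). The 4 methylated DMSO calls came from 2 cells of pool 5, of which 1 had 3 of 4 calls methylated and the other 1 of 1. The difference of -12.9 points (interval -29.8 to 3.25) therefore rests on those cells. Inside the gene, 85.0% of 167 calls were methylated with AG-881 and 90.9% of 143 with DMSO, differing by -5.88 points (interval -13.5 to 1.92). By pool the levels were 88.2%, 82.2%, 91.7% and 80.8% with AG-881, and 89.2%, 88.0%, 91.1% and 94.4% with DMSO, so the pools overlapped. The shared CpGs inside the gene were 3 of 68. They had 60% with AG-881 and 90.0% with DMSO, on 20 calls from 13 cells in each arm. The difference of -30.0 points (interval -55.5 to 0.114) ranged from -58.9 points without pool 1 to -15 points without pool 7. The CpG 107346 bp past the start had 3 of 8 calls methylated with AG-881 and 7 of 8 with DMSO. The difference was 0 points when every cell with at least 3 of these calls had the same weight. Covered cells had 1.54 such calls on average in each arm, so that value rests on few cells. In cells with at least 3 calls, 17 of 33 AG-881 cells and 16 of 22 DMSO cells were fully methylated inside Mgmt, and none was fully unmethylated.

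Every member had calls in cells of both arms, so none was without coverage in either arm as a whole. Coverage was read against start windows of other genes with a like number of CpGs in the table (within 10%), as the percentile of calls. The number of CpGs in the table itself depends on calls. The percentile therefore cannot show a loss of calls that also took CpGs out of the table. Cdkn2a lay at percentile 19.2 with AG-881 and 49.1 with DMSO (489 starts alike), with calls in 42 of 67 AG-881 cells and 50 of 74 DMSO cells. Cdkn2b lay at 12.1 with AG-881 and 6 with DMSO (1649 starts alike); counted in cells with a call in place of calls it lay at 7.58 with AG-881 and at 3.40 with DMSO, under the 5th percentile. Trp53 lay at 58.1 with AG-881 and 53.2 with DMSO, Rb1 at 67.5 with AG-881 and 30.7 with DMSO, and Cdkn2c at 81.3 with AG-881 and 47.5 with DMSO. Rb1 lay lower when counted in cells with a call, at 7.67 with AG-881 and 10.2 with DMSO. It had 37 such cells in each arm, against medians of 47 with AG-881 and 46 with DMSO. Cdkn1b lay at 63.5 with AG-881 and 74 with DMSO, and Mgmt at 29.9 with AG-881 and 47.5 with DMSO. Cells with a call were also the deeper ones: AG-881 cells with a Cdkn2a start call had a median of 93873 CpGs and those without 82153, and DMSO cells had 75052 with a call and 56545 without.

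Among members with CpGs in the start window, Cdkn1c was the only one under the 5th percentile of calls in an arm, at 2.27 with AG-881 (135 calls, against a 5th percentile of 160) and 5.57 with DMSO (152 calls, against 150). Counted in cells, it lay at 1.56 with AG-881 and 2.03 with DMSO, and Cdkn2b with DMSO was the other value under the 5th percentile. Among the 84 starts alike that were over 50% methylated in both arms, a comparison chosen after seeing the data, it lay at 9.52 with AG-881 and 10.7 with DMSO. In that comparison Cdkn2b lay at 49 with AG-881 and 24.5 with DMSO (102 starts). Of the 5 nearest protein-coding genes on either side of Cdkn1c, the 6 with over 20 CpGs in their window (Cd81, Tssc4, Kcnq1, Phlda2, Nap1l4 and Cars) lay between 24.1 and 65.1 with AG-881 and between 8.73 and 97.7 with DMSO. Of these 6, 0 lay under the 5th percentile, and the other neighbours had at most 2 CpGs there. Whether copy number has a part in the coverage of Cdkn1c, Cdkn2b or the inner Cdkn2a promoter was not tested. Calls per cell also differed between the arms, in both directions. After division by each cell's total, the ratio of AG-881 to DMSO was 0.664 for Cdkn2a, 0.638 for Mgmt, 0.811 for Trp53, 0.819 for Cdkn1c and 0.956 for Cdkn1b. It was 1.05 for Cdkn2b, 1.35 for Rb1 and 1.53 for Cdkn2c. Before that division the ratios ran from 0.926 for Mgmt to 1.67 for Cdkn2c and Rb1, and the Cdkn2a ratio was 0.970. These ratios carry no interval and no value over other gene starts, so whether any of them is unusual was not tested.

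**Figure D5:**
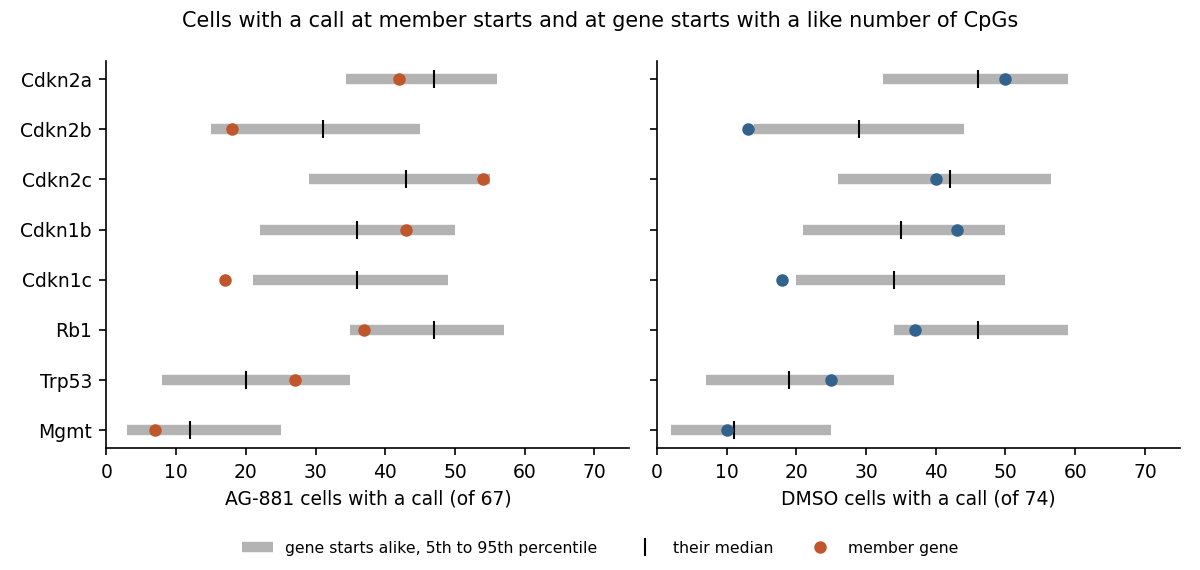
Number of AG-881 cells (left) and DMSO cells (right) with a call at the start window of each member (points), beside the 5th to 95th percentile (grey bars) and median (black ticks) of starts with a like number of CpGs in the table. Cdkn1c lies below the grey bar in both arms, with 17 AG-881 cells and 18 DMSO cells, and Cdkn2b lies just inside it with 18 AG-881 cells and below it with 13 DMSO cells.

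The other genes of these pathways were mostly unmethylated too where their starts were measured. Of 59 listed genes, 46 had a measured start, and 42 of these were under 5% in both arms, against 74.2% of all measured starts. At least 5 points lower with AG-881 were 2, against 8.84% of all measured starts, and 1 was at least 5 points higher, against 2.67%. The median difference was 0. The lower ones were Alkbh3, a repair enzyme of alkylated DNA, with 1.04% with AG-881 (96 calls) and 10.3% with DMSO (97 calls), and E2f6, a repressive E2F factor, with 21.4% with AG-881 (332 calls) and 27.5% with DMSO (385 calls). The higher one was Trp73, a relative of p53, with 33.7% with AG-881 (89 calls) and 25.3% with DMSO (83 calls). With 1 pool left out, the count of lower genes was 0 without pool 4 and 1 without pool 2 or pool 5, and the count of higher genes was 0 in every case. Only 39 to 43 listed genes were measured in these runs. A gene could thus leave a count by no longer being measured, without its difference having gone. E2f6 and Trp73 were also the only listed genes measured at a mean of at least 20% over both arms. The next lowest differences were -2.77 points for Mdm2, which marks p53 for destruction, -2.13 for the checkpoint kinase Chek1 and -1.48 for cyclin D1 (Ccnd1). The next highest were 1.09 points for the p53 target Bbc3, 1.02 for Cic, 1.01 for the kinase Cdk6 and 0.943 for E2f8. The repair genes as a group held 7 measured members with a median of -0.637 points, the E2F factors 8 with a median of 0, and the p53 pathway 9 with a median of 0.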

How the data were processed

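The authors deposited 1 table that gives, per cytosine position and cell, a methylated fraction of 0, 0.5 or 1, missing without a call. The submitters' processing notes name the build mm10. Aligner, caller and read minimum: not given in the sources used here; reads per call are unknown. Transcriptomes were not analysed here. Column names gave arm, pool and barcode but no well, so columns were mapped to arms.

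Chromosomes 1 to 19 and X were kept, and adjacent positions were merged as the strands of 1 CpG. A CpG was methylated above 50% in a cell; ties (0.649% of calls) were left out. Genes, starts and promoter sequences came from RefSeq GRCm38.p6; 98.1% of table CpGs inside promoter sequences lay at a CG. Cdkn1c and Rb1 had no strand there. Intervals of differences combine both arms' intervals; a count of 0 allows 3 calls of the total. Incomplete bisulfite conversion would raise every level.

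All 9 members are described. From the measured starts of the pathway list the 5 lowest and 5 highest differences and any mean of at least 20% are named. Its unmeasured starts with calls at shared CpGs are named too, as are neighbours of members under the 5th percentile of calls. Members and lists were chosen with earlier results of these data known. Levels were checked on simulated calls. Python 3.11.15, NumPy 2.4.6, pandas 2.3.3 and SciPy 1.17.1 were used. Windows, weights, CpG sets, pools and depth limits were varied.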

Additional observations from a re-analysis of the deposited data

How the results depend on the processing

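With 1 choice changed at a time, the count of member starts at least 5 points lower with AG-881 was 1 in place of 0 with every CpG with a call, with 2 kb windows and with every CpG given the same weight (Cdkn1c each time), and 1 with measured starts set at 20 calls and 5 cells per arm (Mgmt). The count at least 5 points higher was 1 in place of 0 with CpGs with calls in 2 or more cells per arm and with every CpG with a call (Cdkn2b), and 1 with every cell given the same weight and without the 25% of cells with fewest CpGs (Cdkn1c). Thus Cdkn1c changed direction with the setting; the cause was not tested. With CpGs with calls in 10 or more cells per arm fewer starts could be measured: 3 members, of which 3 were under 5% in both arms, and 27 pathway genes, of which 25 were under 5%, 0 lower and 0 higher. The count of higher pathway genes was 1, but 0 with every CpG with a call, 0 with 500 bp windows and 2 with 2 kb windows. Leaving out 1 pool at a time gave 4 to 6 measured members, 0 to 1 lower, 0 to 1 higher and 4 to 5 under 5%, and 39 to 43 measured pathway genes, 0 to 2 lower (0 without pool 4), 0 higher and 35 to 40 under 5%. The median member difference stayed between 0 and 0.262 points under every setting run. The count of member starts with calls in at least 10 cells of each arm was 7, and 5 to 7 under the settings run. Of 452 alternative values at single members, 434 lay within the counting interval or on the same side of the percentile used, and 18 did not. A change of sign was counted only where the main interval excluded 0 (or 1 for ratios of calls). The interval of every member difference at shared CpGs held 0, so the count of 0 sign changes says nothing about these differences. Some did change sign: the Cdkn1c denser end went from 3.39 points to -13.2 points without pool 2. No paired analysis was possible because no test was run and the labels give no replicate numbers that the arms share. Levels from under 50 calls in an arm (the Mgmt start, the inner Cdkn2a start, shared CpGs of Cdkn2b) leave differences of 10 points undetectable at this depth. More calls did not always suffice: the Cdkn1c denser end had 118 calls per arm at shared CpGs and an interval of -9.73 to 16.4 points.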
